A study of Mus musculus with 36 samples.

Results

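Oligodendrocytes are the glia that wrap axons in myelin, and 9 genes that serve them are described here across single neurons of the mouse midbrain. Mbp, Mobp, Mal, Cldn11, Cnp, Mag, Mog, Sox10 and Olig1 were taken from a list of names, not by their levels, and all 9 of 9 were found among the 55359 genes of the table. Each of the 36 libraries came from polyadenylated RNA of 1 cell labelled as a neuron. Cells fell into 18 clones of 2, a clone being the progeny of a single radial glia progenitor marked on embryonic day 12 by MADM, which colours daughters of a dividing cell through recombination. All cells carried the M11GTTG reporter pair, in mice of mixed C57/Bl6, FVB and CD1 background. The recombinase was Fz10-CreER in 11 clones (22 cells) and Sox2-CreER in 7 clones (14 cells). By tissue label, 15 Fz10-CreER and 7 Sox2-CreER cells came from sSC, 7 and 5 from dSC, and 2 Sox2-CreER cells from PAG, read here as superficial and deep superior colliculus and periaqueductal grey. The age of the animals at collection is not given in the sources used here, and the labels name no animals, so several clones may come from 1 animal. The deposited value of a gene is an expression signal scaled to gene length, and every cell sums to 2000000. It keeps no read depth, so a gene listed at 0 may be a failed capture.

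Myelin is built from a small set of very abundant proteins. Mbp and Mobp are basic proteins that hold the cytoplasmic faces of the membrane together, Mal sorts membrane lipids and proteins, Cldn11 seals the myelin layers as a tight junction protein and Cnp is a phosphodiesterase of the uncompacted cytoplasm. Mag and Mog sit on the myelin surface, Mag facing the axon and Mog the outside. Olig1 and Sox10 are transcription factors of the lineage, and Sox10 acts directly on myelin genes through short motifs bound by SOX proteins. Mbp messenger RNA is carried far out into the cell's processes, which lie against neurons and axons.

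Since Sox10 was listed at 0 in most cells in which its targets were measured, the promoters are shown first. A RefSeq table (GRCm38.p6) held 6 of the 9 members in 8 windows, namely Cldn11, Cnp, Mag (3 windows), Mal, Mobp and Mog. The 200 bases from 250 to 51 before each start were searched on both strands for ACAAAG and for ACAAT, the cores of SOX sites. A match of one is never a match of the other, since they differ at the fifth letter. Shown are the window with the most matches, 1 with a single match and 1 with none, 5′ to 3′ on the strand of the gene. Capitals mark ACAAAG or its reverse complement CTTTGT.
Mobp: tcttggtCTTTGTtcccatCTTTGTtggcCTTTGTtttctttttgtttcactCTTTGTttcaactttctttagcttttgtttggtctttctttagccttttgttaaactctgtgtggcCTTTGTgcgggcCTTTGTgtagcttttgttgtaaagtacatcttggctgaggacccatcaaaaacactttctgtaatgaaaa
Mag: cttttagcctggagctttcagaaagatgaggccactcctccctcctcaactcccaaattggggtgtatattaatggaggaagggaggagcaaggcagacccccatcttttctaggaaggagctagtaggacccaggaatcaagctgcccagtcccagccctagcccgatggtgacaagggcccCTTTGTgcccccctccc
Cldn11: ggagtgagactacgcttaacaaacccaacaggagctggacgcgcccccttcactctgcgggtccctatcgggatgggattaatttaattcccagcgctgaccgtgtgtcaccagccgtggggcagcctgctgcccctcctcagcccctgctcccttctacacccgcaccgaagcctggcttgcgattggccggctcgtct
The windows lie at chr9:120149492-120149691 on the plus strand (Mobp), chr7:30914973-30915172 on the minus strand (Mag) and chr3:31149670-31149869 on the plus strand (Cldn11). Mobp held 6 copies, all written CTTTGT, starting between 243 and 120 bases before the start. Of 32851 windows of this length, 13.6% held ACAAAG at least once and 1 window, that of Mobp, held 6 or more. Among the member windows 4 of 8 held it, in Mobp, in Cnp and in 2 overlapping windows of Mag. ACAAT was in 23.7% of all windows and in 0 of the 8. A match of this kind describes the letters and not a bound site.

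All 36 cells expressed neuronal genes, and between 2661 and 16769 genes (median 12058) reached a value of 1 in a cell. Snap25, Syt1, Rbfox3 and Map2 were at 1 or more in 36 of 36 cells. Of the markers of other cells, the summed values of 13 astrocyte genes ran from 444 to 13660.0 (median 1947), those of 12 microglia genes from 85.4 to 12767 (median 1752) and those of 8 endothelial and mural genes from 0 to 336 (median 20.3). Cell B.2 (clone B, sSC) had the fewest genes and Snap25 at 299.8, the lowest value of any cell. Cell H.1 (clone H, sSC) had the next fewest, 6180.

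Every library held myelin transcripts, and whether they came from the neuron itself or from other cells was not tested. Each cell had between 3 and 9 of the members at a value of 1 or more, with a median of 8. All 9 were present in 10 cells, 8 in 11 cells, 7 in 5 cells, 6 in 5 cells, 5 in 4 cells and 3 in 1 cell. At a value of 10 or more the median was 7 members, and at 100 or more it was 4. The 9 members summed to between 336 and 14085 in a cell (median 2416), or 0.0168% to 0.704% of its total. Mbp and Mobp together made up 56.8% of that sum at the median, with extremes of 6.45% and 95.6%.

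**Figure D1:**
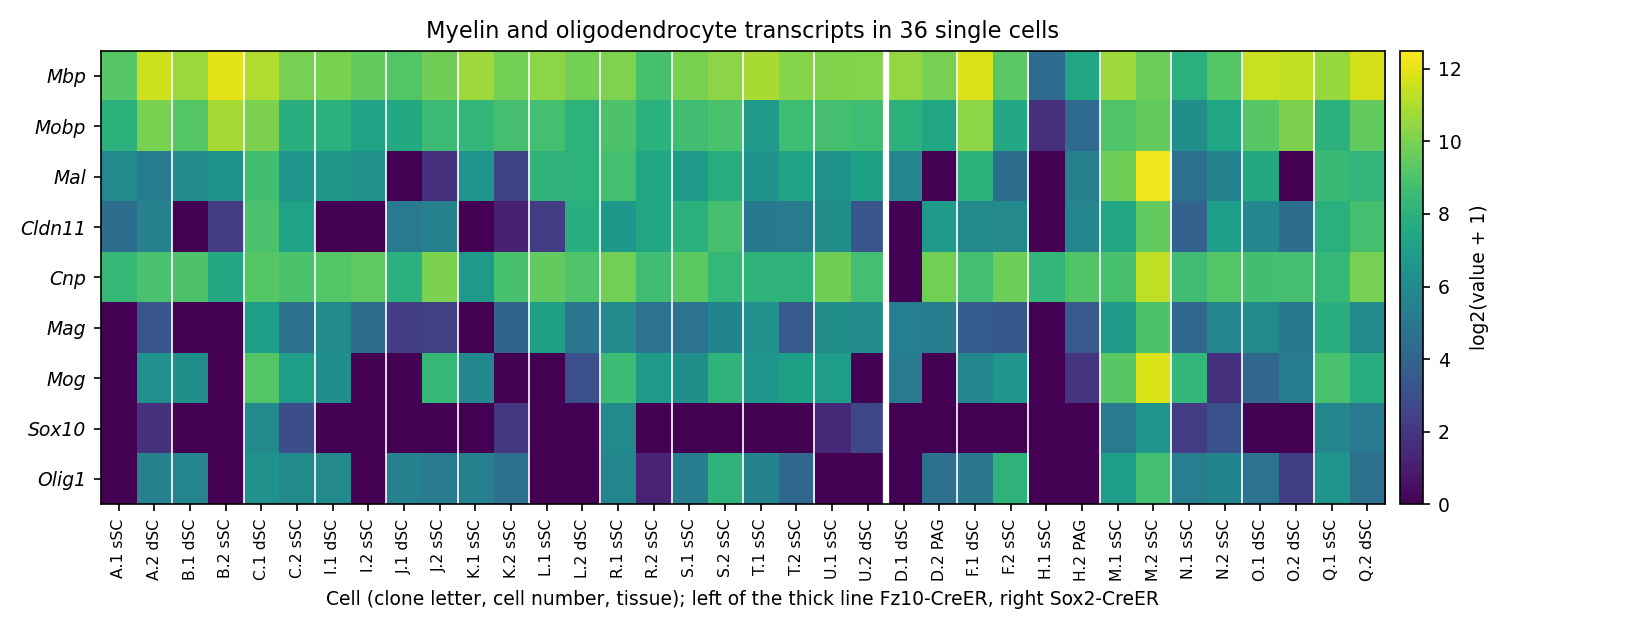
Level of each member (rows) in each of the 36 cells (columns, grouped by clone and driver), as log2(value + 1) in colour from 0 (dark) to above 12 (yellow). Mbp, Mobp and Cnp are bright in nearly all columns, Sox10 is dark in most, and cell M.2 is bright in all rows.

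Mbp was the most abundant member, with values from 19.4 to 4060.4 and a median of 1105. It was at 100 or more in 35 of 36 cells, cell H.1 being the exception. Mobp was also in all 36 cells, from 2.25 to 1788 with a median of 384, and H.1 was again lowest. Mal was listed at 0 in 4 cells and otherwise reached up to 4729.7, with a median of 87.3. Cldn11 was listed at 0 in 6 cells, with a median of 48.8 and a highest value of 719. The 2 basic protein genes were thus present throughout, and the 2 other membrane genes were missing from some cells.

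Cnp was at 1 or more in 35 cells, from 0 to 2496 with a median of 479. The exception was the dSC cell of clone D, where Cnp was listed at 0 while its PAG sibling had 915. Cnp shares its place in the genome with Dnajc7, a cochaperone gene on the opposite strand, and the use of strand is not given in the sources used here. Annotated genes also overlap Mbp (Rpl21-ps8), Mog (Gm22388) and Olig1 (Gm15966) on the opposite strand and Mobp (Gm38642) on the same strand. The part of overlapping genes in the members' values was not tested. Dnajc7 had a median of 74.5, and its log2 values correlated with those of Cnp at r = 0.373 over the 36 cells. In each cell both values come from the same library, whose depth is unknown.

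The 2 surface protein genes were each listed at 0 in some cells, and their ranges overlapped. Mag ran from 0 to 492.8 (median 27.6) and was at 1 or more in 31 cells. Mog ran from 0 to 3569.8 (median 70.7) and was listed at 0 in 9 cells. The 2 transcription factors were the least widespread members. Olig1 was at 1 or more in 26 cells, from 0 to 435 with a median of 31.997. Sox10 reached 1 in 13 cells, its highest value being 87.9, and was listed at 0 in the other 23.

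By median, the order was Mbp, Cnp, Mobp, Mal, Mog, Cldn11, Olig1, Mag and Sox10. The range from the lower to the upper quartile of Mbp (798 to 1618) did not overlap that of Cnp (328 to 654), and that of Mag (10.1 to 60.3) did not overlap that of Sox10 (0 to 4.05). All other neighbours in the order overlapped in this range.

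Other oligodendrocyte genes ranged from abundant to scarce. Of 30 other genes of myelin structure and lipid, 20 were present in at least 18 cells, and Omg, a surface glycoprotein that neurons also make, was at 10 or more in 35 cells (median 233). Sirt2, a deacetylase, and Trf, transferrin, were at 10 or more in 33 and 32 cells. Among 8 lineage regulators, Olig2 was at 1 or more in 12 cells and Myrf, a myelin gene activator, in 8. Nkx6-2, a homeodomain transcription factor, was at 1 or more in 31 and at 10 or more in 30. Tcf7l2 was at 10 or more in 20 cells and Zfp536 in 12. Of 10 precursor genes, Pdgfra, Cspg4 and Vcan were each at 1 or more in 10 cells. Bcas1 (32 cells at 10 or more), Lhfpl3 (29) and Ptprz1 (23) were the widespread ones of that list.

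Members did not vary as a single block. Mbp and Mobp varied together across the 36 cells (Pearson r = 0.907 and Spearman rho = 0.746 of the log2 values), and r was 0.825 without cell H.1, 0.901 without B.2 and 0.920 without M.2. With the 7 members other than Mobp, Mbp correlated between -0.065 and 0.385. Without H.1 all 7 were lower, from -0.131 (Cnp) to 0.198 (Mal), with Mag at 0.043. Mog was closest to Olig1 (0.647), Mag to Sox10 (0.562), Cldn11 to Mag (0.526) and Cnp to Cldn11 (0.432). Mal was about as close to Mog as to Sox10 (0.501 each), and without M.2 it had 0.430 with Mog and with Mbp and 0.414 with Sox10. By Spearman rho, Mag and Mal were closest to each other (0.622) and Cldn11 to Mog (0.579). Over the 36 pairs of members 35 had r above 0, with a median of 0.306, and among the 15 pairs without Mbp, Mobp and Cnp the median was 0.494 and the lowest 0.190. These values describe cells that come in sibling pairs and differ in library quality. Sox10, Cldn11 and Mog correlated with the number of genes detected at 0.558, 0.506 and 0.504, and Mbp and Mobp at 0.124 and 0.147.

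**Figure D2:**
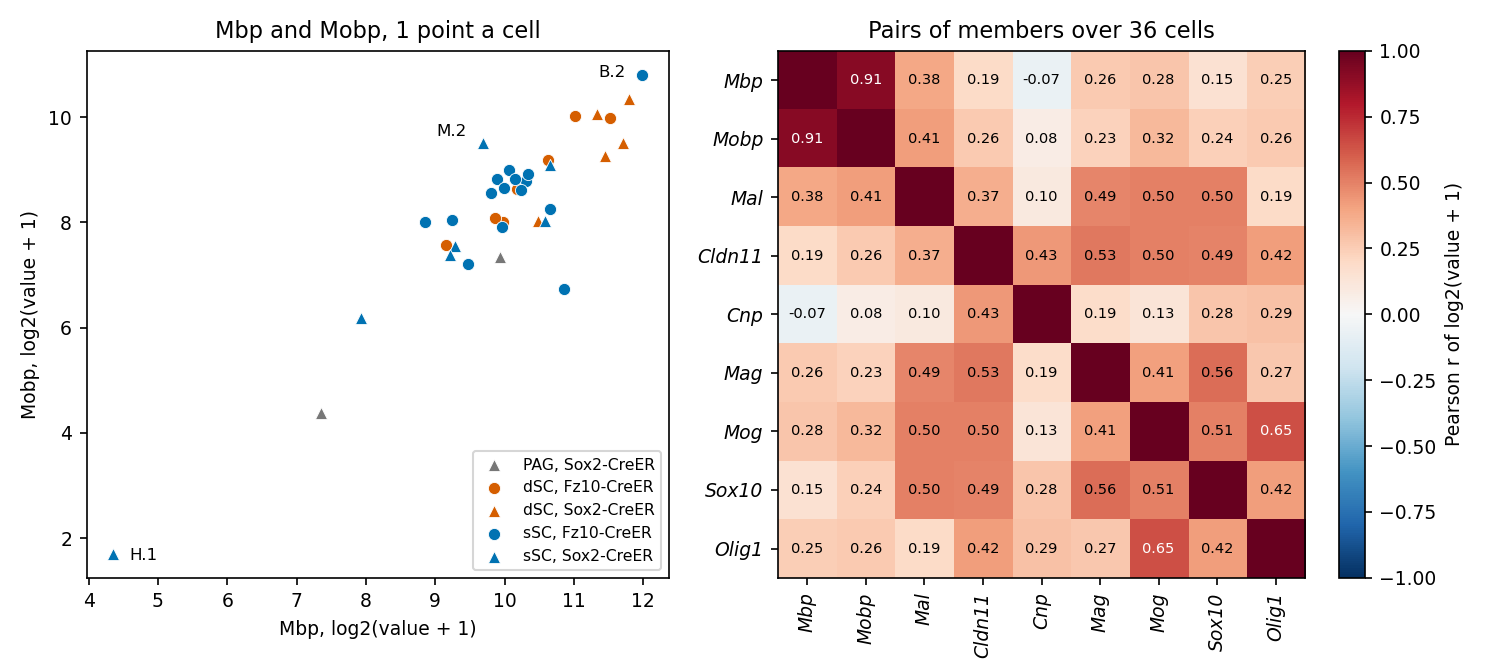
Left, Mobp against Mbp in each cell as log2(value + 1), with colour for tissue and shape for driver. Right, Pearson r of every pair of members over the 36 cells. Mbp and Mobp follow a line (r = 0.907) with H.1 at its low end, and the pairs of Mbp with other members are pale.

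The mean log2 value of the 9 members followed that of the 30 other myelin genes (r = 0.836 over 36 cells, 0.798 without M.2). With the lineage regulators r was 0.668, with astrocyte genes 0.650, with the number of genes detected 0.591, with neuronal genes 0.486 and with microglia genes -0.064. Of 14893 genes ranked by r with that mean, the first was Tmem88b (0.716), a membrane protein gene of myelinating cells, followed by Gjc3 (0.696), a glial connexin. Pdlim2 (0.692), Pde4b (0.681), Map7 (0.667), Prkcb (0.660), Npcd (0.659), Gab1 (0.658), Olig2 (0.649) and Tyro3 (0.644) completed the first 10. Tmem88b was at 1 or more in 16 cells and Olig2 in 12, whereas Prkcb and Npcd were in all 36.

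**Figure D3:**
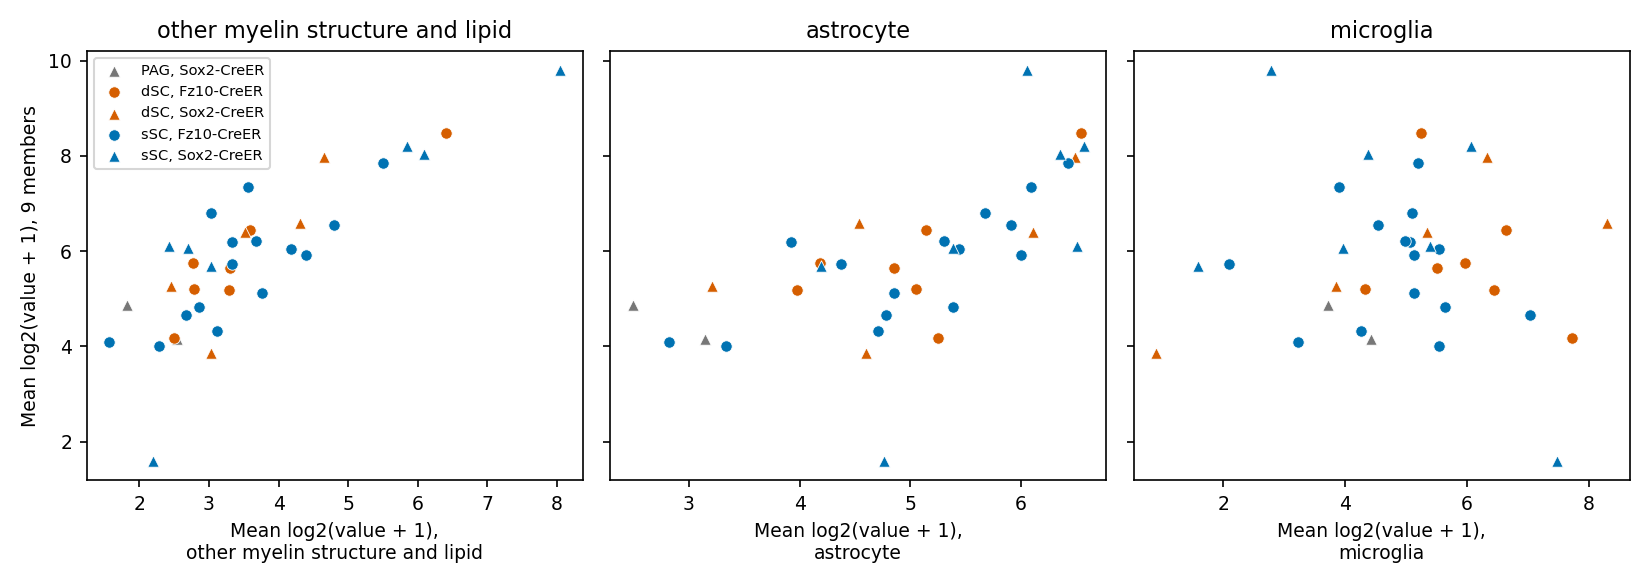
Mean log2(value + 1) of the 9 members in each cell (vertical) against that of other myelin genes, astrocyte genes and microglia genes (horizontal). Points rise from left to right in the first and second panels (r = 0.836 and 0.650) and show no slope in the third (r = -0.064).

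A Sox2-CreER sSC cell, M.2, stood apart, and it was singled out after its values were seen. It had the highest value of all cells for 7 of 9 members and for 19 of the 30 other myelin genes. Mal was 4729.7 and Mog 3569.8, against 848 and 612 in its sibling M.1. Mbp (826) and Mobp (730) were within the range of the other cells, so both made up only 11.1% of the member sum of M.2. Neuronal genes were present in M.2, with Snap25 at 2121 and Gad1, which makes the transmitter GABA, at 535. The 12 microglia genes summed to 349 there. Its sibling also held all 9 members.

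Other cells had a different make-up. In B.2, Mbp (4060.4) and Mobp (1788) were the highest of any cell and made up 95.6% of the member sum, while Mag, Mog, Sox10 and Olig1 were listed at 0. The 13 astrocyte genes summed to 13660.0 in that library, also the highest, but Apoe (10553) and Gjb6 (1402) carried most of it. Only 7 of the 13 were at 1 or more, and their mean log2 level was 4.70, against a median of 5.09 over all cells. In H.1 only Mbp (19.4), Mobp (2.25) and Cnp (314) were at 1 or more. The 12 microglia genes summed to 12767 there, the highest of any cell. The part of library quality and of other cells' RNA in these levels was not tested.

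The clones address whether the libraries of sister neurons hold similar amounts of these transcripts. The median gap between sisters was smaller than that between cells of different clones for 8 of 9 members (all but Cnp). The same held for 48.4% of 14902 genes at 1 or more in 25% of cells. That share is not a like-for-like background. A gene listed at 0 in most cells can have a median gap of 0 in both kinds of pair. Such a gene does not count as smaller, and the number of such genes was not counted. Some of the 8 gaps were only slightly smaller, as for Mbp (0.87 between sisters, 0.99 between clones) and Mobp (0.99 and 1.21). No member passed the test. Cldn11, the tight junction gene, was high in both cells of clone S (259 and 445), clone Q (246 and 455) and clone M (173 and 719). It was listed at 0 in both cells of clone I, and in clone K the cells had 0 and 1.21. The median gap between sisters was 1.23 log2 units, against 2.89 between cells of different clones (18 and 612 pairs). Gaps wider than 2.89 were found in clone D (0 and 107), clone H (0 and 51.4), clone L (3.73 and 228) and clone N (14.3 and 126), and clone U (71.6 and 9.01) came close at 2.86.

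Sox10 was at 1 or more in both sisters of 5 clones, in neither of 10 and in 1 of the 2 in 3. The 5 were clone C (62.8 and 6.95), clone M (33.1 and 87.9), clone N (3.56 and 7.91), clone Q (53.7 and 33.4) and clone U (1.72 and 5.52). The widest pair was clone R, with 62.5 in 1 cell and 0 in the other. The correlation between sisters over 18 pairs, each entered in both orders, was 0.661 for Sox10, 0.608 for Mag, 0.528 for Cldn11, 0.400 for Mal and 0.385 for Olig1. Without clone M the values were 0.565, 0.570, 0.497, 0.283 and 0.313, in the same order. Lower still were Mag (0.494) and Cldn11 (0.485) without clone B and Olig1 (0.302) without clone H.

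Mag was similar in the sisters of clone D (41.8 and 38.5), clone F (11.5 and 9.69) and clone U (70.9 and 63.8), and was listed at 0 in both cells of clone B. It was at 1 or more in both sisters of 14 clones. Its widest pair was clone K, with 0 and 15.2. Mal was high in both cells of clone M (848 and 4729.7), clone Q (347 and 304), clone L (275 and 267) and clone R (454 and 168). Clone O had 192 in 1 dSC cell and 0 in the other, the widest gap. Olig1 was at 1 or more in both sisters of 11 clones, as in clone C (77.8 and 61.8) and clone N (40.2 and 48.4), and was listed at 0 in both cells of clones H, L and U. Mag and Olig1 therefore had clones with both cells at 1 or more and clones with both listed at 0, beside pairs that were split. For Mag the latter was clone B, which holds the cell with the fewest genes. Mal was listed at 0 in both cells of no clone, clone J coming closest with 0 and 2.49.

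Mobp and Mbp had sister correlations of 0.612 and 0.540, which fell to 0.150 and 0.172 without clone H, so these 2 values rested on that clone. Mog (0.134) and Cnp (-0.216) showed the weakest likeness, and the value of Mog was -0.014 without clone M and 0.063 without clone H. Mog was at 1 or more in only 1 of the 2 sisters in 9 of 18 clones, clone J having 0 and 320. The 9 members therefore ranged widely in how alike sisters were.

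The F test of limma, run on 16 clones and adjusted for tissue, called 0 of 9 members, where 3 of 15132 genes (0.0198%) passed an adjusted p of 0.05. The median F of the members was 2.55, against 1.10 over all genes, and 5 of 9 members had an unadjusted p under 0.05, against 7.80% of all genes. With genes detected as a covariate 3 of 9 members did, and 924 of 15132 genes. Cldn11 had F = 5.56 (limma adjusted p = 0.160), Sox10 3.70 (0.398), Mag 3.39 (0.466), Mal 3.08 (0.478) and Olig1 2.55 (0.554). Mog (F = 1.55), Mbp (1.05), Mobp (0.92) and Cnp (0.56) had limma adjusted p from 0.724 to 0.941. Of 43 tested genes of the other 3 oligodendrocyte lists 0 passed and 7 had an unadjusted p under 0.05. Sisters share a driver, which was not a term of this fit. Effects of the clone, its driver, its animal and the day it was collected cannot be told apart. The 4 red blood cell genes had F values from 2.95 for Hba-a2 to 5.70 for Hba-a1 in the same test, and the part of shared tissue handling was not tested.

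**Figure D4:**
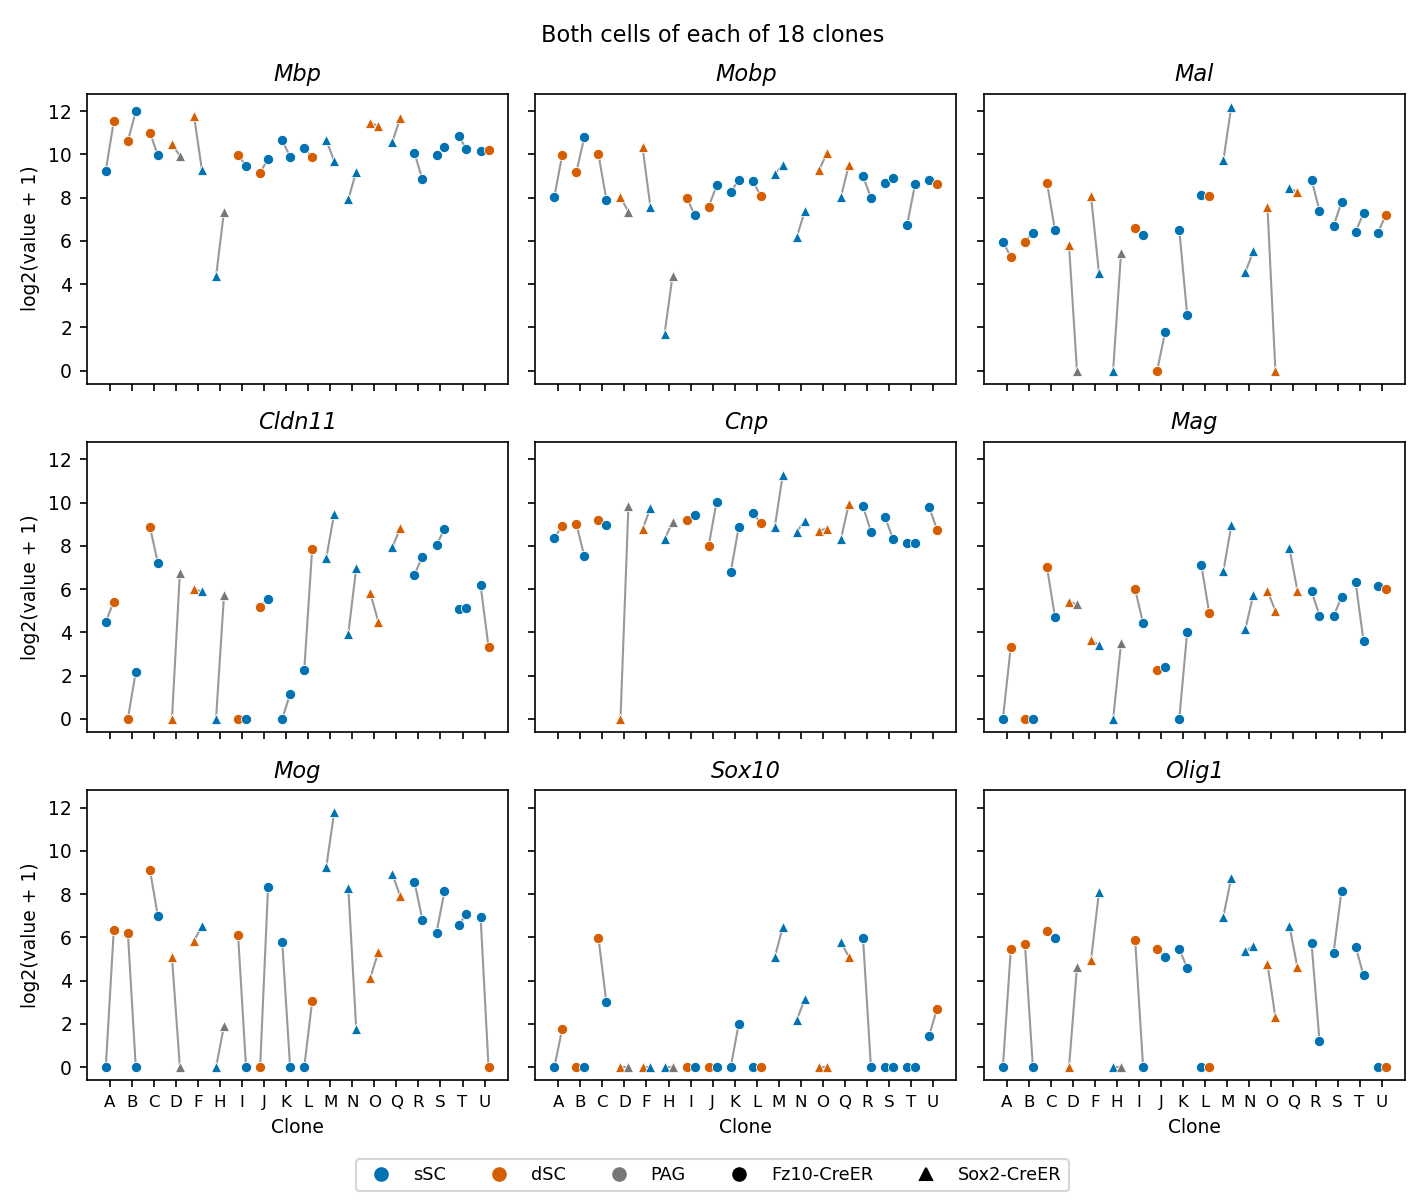
Both cells of each of the 18 clones, joined by a line, for each member as log2(value + 1), with colour for tissue and shape for driver. Lines are short for Mbp, Mobp and Cnp in most clones. For these genes the median gap between cells of different clones is small too (0.99, 1.21 and 0.76 log2 units). Both Sox10 points lie at 0 in 10 clones, and many Mog lines reach from 0 to above 5.

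The tissue comparison asks whether superficial and deep neurons differ. Mbp and Mobp had lower mean levels in sSC, and no member passed. Mbp ran from 19.4 to 4060.4 in the 22 sSC cells (median 1006) and from 567.5 to 3546 in the 12 dSC cells (median 1819.7), and the groups overlapped. Its log2 level over clone means was 9.65 ± 1.60 in sSC (SD, n = 16 clones). In dSC it was 10.70 ± 0.86 (SD, n = 11 clones), and sSC minus dSC came to -1.06 (SE 0.52, limma adjusted p = 0.961). Mobp was 7.94 ± 1.90 against 9.002 ± 0.97, a difference of -1.06 (SE 0.62, limma adjusted p = 0.971). With single clones left out the difference ran from -1.22 to -0.70 for Mbp and from -1.25 to -0.65 for Mobp. Both were smallest in size without clone H. Cnp differed by 0.79, with the 0 of clone D in the dSC group, and the others lay between -0.39 (Mag) and 0.20 (Cldn11). limma called 0 of 14613 genes (0%) and 0 of 9 members. The median difference was -0.08 over the members and -0.31 over all genes, and 754 genes in all had an unadjusted p under 0.05, Mbp being the 1 member among them. With genes detected as a covariate the members' median was 0.73, with 7 of 9 above 0 in place of 2 of 9, and that of all genes 0.07. With the clone as a replicate block it was -0.56, with 1 of 9 above 0, and leaving out single clones gave -0.41 (clone J) to 0.14 (clone C).

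In the 9 clones split between sSC and dSC, Mbp was higher in the dSC sister in 6 and Mobp in 5. Clone F had Mbp at 620 in sSC and 3546 in dSC, and clone A 608 and 2943. Clone B went the other way, with 4060.4 in sSC and 1574 in dSC. With clone as a block the differences were -0.56 for Mbp and -0.63 for Mobp, and -1.41 for Olig1, and limma called 0 of 9 members and 1 of 14613 genes (0.00684%). The median over all genes was -0.66 in that fit. The 12 microglia genes all had values below 0 in that fit, with a median of -1.53 and 0 of 12 called. Their summed level ran from 184 to 12767 in sSC and from 85.4 to 10232 in dSC cells, Itgam and Ptprc were at a median of 0, and their part in the members' differences was not tested.

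The 6 remaining members overlapped between the tissues. Mal was present in all but 1 of the 22 sSC cells and in 10 of the 12 dSC cells, with medians of 87.3 and 119.7. Cldn11 had medians of 52.5 and 38.4, and Mag of 25.8 and 36.4. Mog was listed at or near 0 in some cells of both tissues, with medians of 102.8 and 47.5. Sox10 was at 1 or more in 9 sSC and 4 dSC cells, and Olig1 in 16 and 9. The lowest value was 0 in both tissues for each of these 6 genes. The 2 PAG cells, of clones D and H, entered no test. They had Mbp at 975 and 162, Mobp at 162 and 19.7, Cnp at 915 and 554, Cldn11 at 106.8 and 51.4 and Mag at 38.5 and 10.3. Sox10 was listed at 0 in both, and Mog reached 2.73 in the cell of clone H and 0 in that of clone D.

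The driver comparison asks whether neurons of progenitors marked through Fz10-CreER and Sox2-CreER differ. In sSC the basic protein genes had higher and the transcription factors lower mean levels in Fz10-CreER cells, and no member passed. Of 15 Fz10-CreER cells 4 had Sox10 at 1 or more, as did 5 of 7 from Sox2-CreER clones. Those 5 are not independent, since they include both sisters of clones M and N. The median number of genes detected was 11544 in Fz10-CreER and 13450 in Sox2-CreER sSC cells. Over clone means, the log2 level of Sox10 was 0.77 ± 1.21 (SD, n = 11 clones) against 2.85 ± 2.89 (SD, n = 5). The difference was -2.08 (SE 0.95, limma adjusted p = 1.0). Olig1 ran from 0 to 283 (median 23.1) and from 0 to 435 (median 91.2), a difference of -2.76 (SE 1.42). Mog differed by -1.94 and Cldn11 by -1.10. Mog came to -3.49 without clone H and -0.86 without clone M, and Cldn11 to -2.49 and -0.37.

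Mbp ran from 459 to 4060.4 (median 1074) in Fz10-CreER and from 19.4 to 1618 (median 620) in Sox2-CreER sSC cells, a difference of 1.53 (SE 0.83). Mobp had medians of 391 and 187 and differed by 1.84 (SE 1.00). Both rested in part on clone H: without it the differences were 0.47 for Mbp and 0.59 for Mobp. Those of Olig1 and Sox10 were then -4.16 and -2.79 (limma adjusted p = 0.480 and 0.542). Over all single clones left out, the difference ran from 0.47 to 2.03 for Mbp and from 0.59 to 2.49 for Mobp. It ran from -4.16 to -2.13 for Olig1 and from -2.79 to -1.35 for Sox10. Mal differed by 0.41 (SE 1.31). limma called 0 of 14320 genes (0%), and the median difference was -0.98 over the members and -0.38 over all genes. The members' median was -2.19 without clone H, -0.22 without clone M and -0.39 without clone Q, and it turned to 0.10, with 5 of 9 above 0, when genes detected were a covariate. Of 13 astrocyte genes 11 had a difference below 0, like the transcription factors, with a median of -1.04 and 0 called. Their summed level ran from 444 to 13660.0 in Fz10-CreER and from 1168 to 3495 in Sox2-CreER sSC cells, Aldh1l1 and Gjb6 were at a median of 0 over all cells, and their part was not tested. Of the 4 red blood cell genes 3 went the way of Mbp and Mobp, and Hbb-bs was at -0.06. The median of the 4 was 1.37 and 0 were called. These 4 genes summed to between 0 and 9623 (median 1041) in Fz10-CreER and 46.9 and 6691 (median 77.5) in Sox2-CreER sSC cells. Their part was not tested either.

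In dSC, Mbp had the opposite sign. It ran from 567.5 to 2943 (median 1161) in the 7 Fz10-CreER cells and from 1436 to 3546 (median 2787) in the 5 Sox2-CreER cells, which overlapped. The difference of clone means was -1.01 (SE 0.39, limma adjusted p = 0.903). Mog differed by -1.49 (SE 1.51), and Cnp by 2.01 (SE 1.58), which became -0.28 without clone D, whose dSC cell had Cnp listed at 0. limma called 0 of 9 members and 1 of 16310 genes (0.00613%). The interaction, which asks whether the driver difference itself differs between tissues, was 2.54 for Mbp (SE 1.03, limma adjusted p = 0.792), 2.44 for Mobp (SE 1.26) and -3.59 for Olig1 (SE 2.17). It called 0 of 9 members and 1 of 14613 genes (0.00684%), and without clone H the values were 1.48, 1.19 and -4.99. Over all single clones left out, they ran from 1.48 to 2.94, from 1.19 to 3.09 and from -4.99 to -2.50, in the same order. In dSC all 4 red blood cell genes had a difference below 0 (median -1.41) and all 12 microglia genes above 0 (median 0.98), with 0 called in both lists. The red blood cell genes summed to between 4.72 and 5158 in Fz10-CreER and 152 and 5533 in Sox2-CreER dSC cells, and the microglia genes to between 674 and 8697, and 85.4 and 10232. The interaction was above 0 for 4 of 4 red blood cell genes (median 2.58), as for Mbp and Mobp. The part of these genes in the members' values was not tested. Of the other 3 oligodendrocyte lists, 0 genes passed in any of these comparisons.

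**Figure D5:**
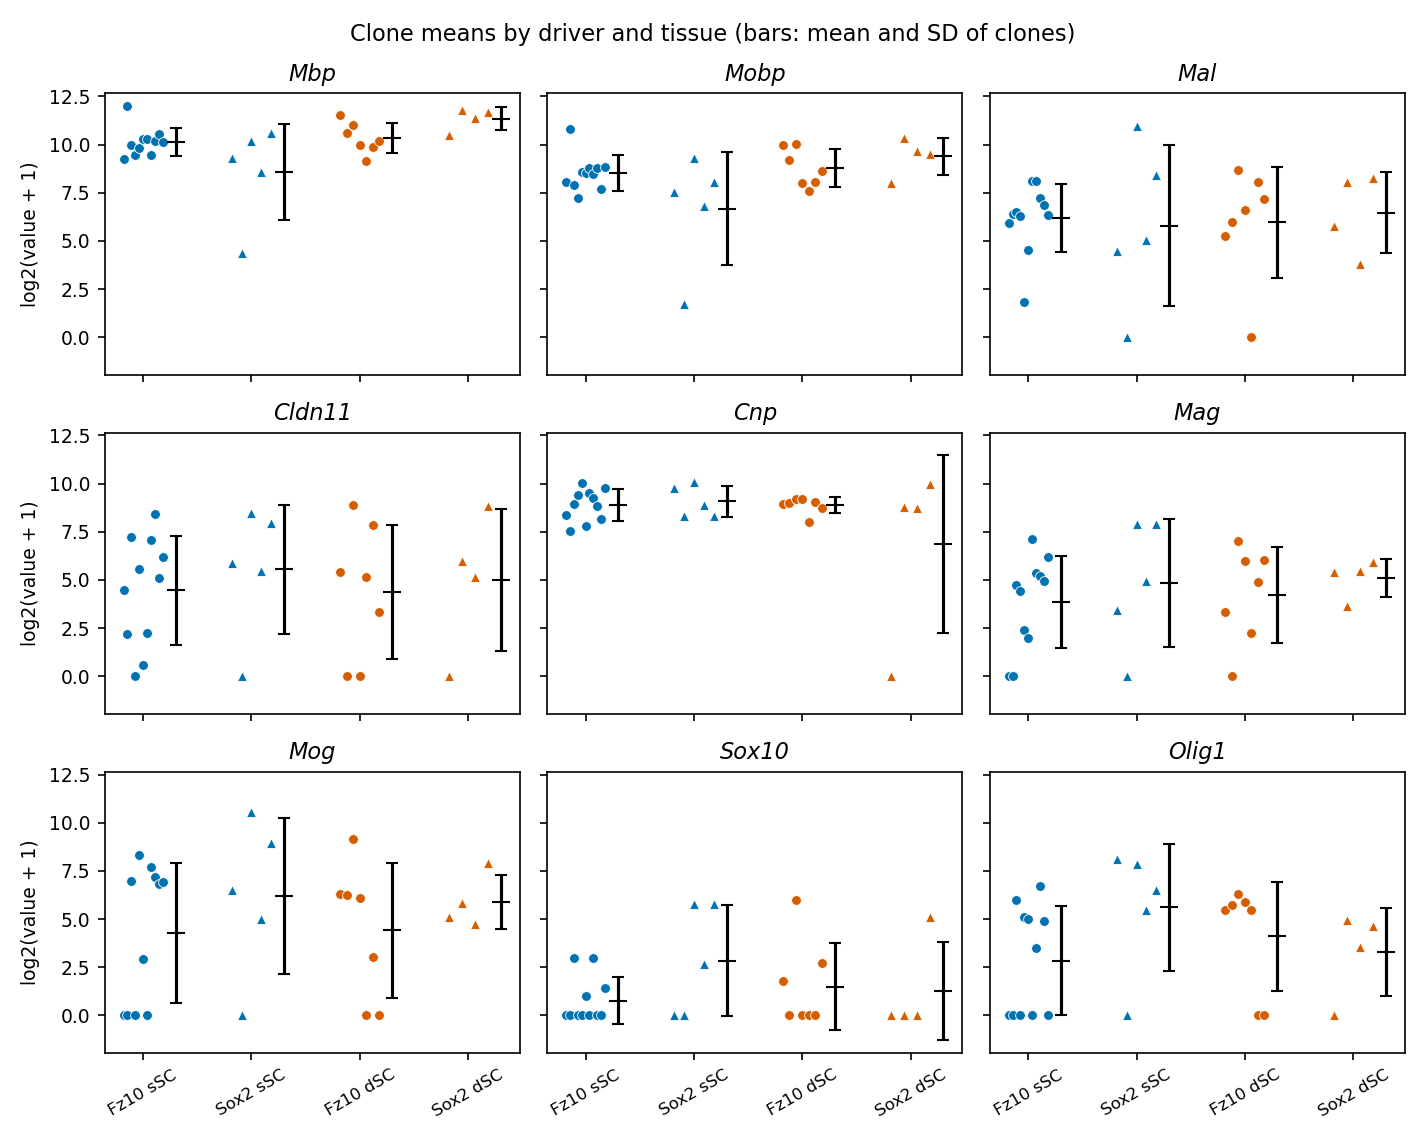
Clone means of each member as log2(value + 1) by driver and tissue, with the mean and SD of clones as black bars (11 Fz10-CreER sSC, 5 Sox2-CreER sSC, 7 Fz10-CreER dSC and 4 Sox2-CreER dSC clones). The groups overlap for every member, and the low Mbp and Mobp point in Sox2 sSC is clone H.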

How the data were processed

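Per the labels' protocols, a SMART-Seq kit for single cells was used on polyadenylated RNA. STAR 2.7.9a and R 4.0.3 are named in the submitters' processing notes, with GRCm39 as the build. How reads were counted, and whether by strand, is not given in the sources used here. What the authors deposited is 1 expression signal for every gene in every cell, named TPM of exon plus intron. Each cell sums to 2000000, so it was not read as plain TPM, and depth is unknown. Gene symbols came from GENCODE M21, matched on gene identifiers.

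Values were taken as log2(value + 1), which understates differences of low genes. A gene was tested if 25% of the cells compared had a value of 1 or above, with limma 3.58.1 in R 4.3.3 (trend and robust), with Benjamini-Hochberg adjustment over all genes and a threshold of 0.05. For the main tissue, driver and interaction fits, cells of a clone and tissue were averaged, so p-values measure the spread between clones. The clone effect was fitted on single cells (32 cells of 16 clones), so its p-values set clones against the spread between sisters. The fits used 16 sSC and 11 dSC means, 11 and 5 for the drivers in sSC, and 7 and 4 in dSC. Sisters of a clone come from the same animal by the design, so fits with clone as a block were also made. Correlations over cells are descriptions. The rest was done in Python 3.11.15 (numpy 2.4.6 and pandas 2.3.3, with matplotlib 3.10.9 for figures), and the limma script was tested on simulated data.

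The members and lists were chosen with earlier results of these data known. Named genes are the 9 members, up to 4 genes per list at 10 or more in the most cells, Olig2 and the 10 genes most like the members' mean. A result that this rule would give is not reported here. Other genes named were chosen after their values were seen.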

Additional observations from a re-analysis of the deposited data

Results flagged for a closer look

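Over 27 sets of clone means (9 members in the Fz10-CreER dSC, Sox2-CreER sSC and Sox2-CreER dSC groups), 4 held a clone whose gap to the nearest other was large for the range of its group. For normally distributed values about 1 such set in 20 would pass this threshold. Sets that hold clones listed at 0 do not have such values, so 4 of 27 cannot be set against that rate. Cnp in Sox2-CreER dSC was flagged through clone D, listed at 0, the next clone having a log2 level of 8.75. Cnp in Fz10-CreER dSC was flagged through clone J, at 8.00 against 8.75 for the next. Mal in Fz10-CreER dSC was flagged through clone J as well, listed at 0 against 5.27. Sox10 in Sox2-CreER dSC was flagged through clone Q, at 5.10 while the other 3 clones were listed at 0.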

How the results depend on the processing

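In all 1080 combinations of member, comparison and alternative, 0 members passed. The smallest limma adjusted p was 0.0536, for the clone effect of Cldn11 without clone L. Signs were less stable: the tissue difference changed sign in 16 of 81 values under other settings and in 30 of 162 with a clone left out, over all 9 members, but not for Mbp or Mobp. Of the values given, the tissue difference of Mag was 0.24 with genes detected as a covariate and that of Cldn11 -0.42 with clone as a block. The driver difference in sSC was 0.10 for Cldn11 with that covariate and -0.10 for Mal at a pseudocount of 10. With single clones left out, the tissue difference ran from -0.26 to 0.69 for Cldn11 and from -0.024 to 1.01 for Cnp, the driver difference of Mal in sSC from -1.04 to 1.70 and that of Cnp in dSC from -0.28 to 3.04.

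Over all genes, the tissue fit called 1 gene at a pseudocount of 10, after quantile normalization and with clone as a block, and the driver fit in sSC 1 at a pseudocount of 10. The driver fit in dSC called 0 without trend and robust. The interaction called 0 at a pseudocount of 10, without the filter, with the covariate, without the sSC cell of clone B, without trend and robust, and with clone as a block. The clone effect called 6 at a pseudocount of 0.1, 60 without the filter and 1 without trend and robust. Leaving out single clones gave 0 to 1 for the tissues, 0 to 5 and 0 to 2 for the drivers in sSC and dSC, 0 to 1 for the interaction and 2 to 5 for the clones. The median number of members per cell was 4 at a value of 100 or more. Leaving out cell M.2, chosen after seeing the data, changed no call of a member. With 4 to 16 clones a group and unknown depth, a difference that does not pass is not shown to be absent.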
